A study of Mus musculus with 24 samples.

Results

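Transcripts of 41 genes of the autophagy machinery and of the TFEB family of transcription factors were followed in 2 white fat depots of mice with and without adipose FoxO1. The genes were chosen by name and found by symbol in the deposited table of 35275 genes. All 41 were found, and all 41 passed the filter on low values (a mean of at least 0.5 FPKM, fragments scaled to gene length and to the assigned reads of the library) in every comparison. The 4 groups were gonadal fat of conditional adipose FoxO1 knockout mice, gonadal fat of mice with the floxed FoxO1 gene (controls), inguinal fat of the knockout mice and inguinal fat of the controls. The driver that removes FoxO1 in fat, and the strain, age, sex and diet of the mice, were not stated in the sources at hand. Knockout mice had the animal numbers M5, M9 and M12 in the library names and controls M6, M7 and M10, with 2 libraries from each pad. Genotype and depot were read from letters in those names. The 2 libraries of a pad were averaged, so that each group held 3 mice.

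Autophagy encloses cytoplasm in a double membrane, the autophagosome, and delivers it to lysosomes for breakdown. A kinase complex around ULK1 starts the process, a lipid kinase complex around Beclin 1 marks the membrane, lipid transfer proteins extend it, and ubiquitin-like conjugation attaches the ATG8 proteins (LC3 and GABARAP) to it, where cargo receptors bind. TFEB, TFE3 and MITF activate lysosomal and autophagy genes when nutrients are short. FoxO factors, which insulin keeps out of the nucleus, are known to induce several of these genes in skeletal muscle of mice, and autophagy is known to act in fat cell differentiation and in the removal of mitochondria from beige fat. The series looked for genes and pathways under the regulation of FoxO1.

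Each of the 24 libraries had between 14953657 and 25438811 assigned reads, and a member had 148 (Atg16l2) to 23066 (Sqstm1) reads per mouse and pad, summed over the 2 libraries, so that counting error weighs most on the members with few reads. Foxo1 itself was at 4.07, 4.46 and 4.01 FPKM in knockout and 13.6, 7.87 and 9.53 FPKM in control gonadal pads. In inguinal pads it was at 4.12, 2.49 and 5.69 FPKM in knockout mice and 19.7, 13.0 and 14.5 FPKM in controls. Knockout and control pads did not overlap in either depot (log2 fold change -1.18 in gonadal and -1.86 in inguinal fat; limma adjusted p = 0.407 and 0.129; exact two-sided permutation p = 0.1 in each, the smallest that 3 mice against 3 allow). All 7 adipocyte markers (Adipoq, Plin1 and others) were present in all 12 pads, with summed levels of 10219 to 37573 FPKM. The gonadal pads of knockout mouse M12 and of control mice M10 and M6 also held transcripts of the epididymis and male tract (12 markers summing to 6835, 3570 and 667 FPKM, against at most 1.96 FPKM in the other 9 pads). The inguinal pads of knockout mouse M9 and control mouse M7 held hardly any B cell transcript (5 markers summing to 3.80 and 3.27 FPKM, against 166.6 to 273 FPKM in the other inguinal pads). In a whole pad, fewer cells of a type and less RNA per cell cannot be told apart.

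Levels differed widely among the members, on a scale that allows for gene length. Averaged over the 12 pads, the most abundant were Gabarap at 215 FPKM, Bnip3 at 170 FPKM, Sqstm1 at 143 FPKM, Map1lc3a at 115 FPKM and Pink1 at 114.8 FPKM. The lowest were Atg14 at 4.35 FPKM, Atg16l2 at 3.18 FPKM and Atg2b at 2.97 FPKM. The abundant transcripts were thus those of ATG8 proteins, mitochondrial removal and the cargo receptors Sqstm1 and Tax1bp1 (53.8 FPKM). The cargo receptors Nbr1 (22.4 FPKM) and Optn (19.0 FPKM) stood below the conjugation gene Atg3 (32.8 FPKM). The starting kinases and the lipid kinase complex stood between 4.35 and 14.4 FPKM. Members that overlap another gene model could share reads with it, since the strand used in counting was not stated in the sources at hand. Sqstm1 overlaps the opposite-strand gene 3010026O09Rik (750 bases, 2.23 FPKM), Optn an antisense RNA, 4930551O13Rik, listed at 0.0844 FPKM, and Becn1 the gene Cntd1 at 0.107 FPKM. Map1lc3b overlaps the opposite-strand gene Zcchc14 (58 bases, 6.51 FPKM) and the same-strand gene Gm20388 (8400 bases, 0 FPKM). Atg4d overlaps the opposite-strand gene Kri1 (912 bases, 6.64 FPKM) and Atg4b the opposite-strand gene Thap4 (3365 bases, 1.96 FPKM).

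The promoters of 3 members are shown because their genes carry the differences described below (Optn and Bnip3) or hold the motif of the TFEB family (Atg3). Each covers 250 bases before to 50 bases after a transcript start in RefSeq on build GRCm38.p6, read 5′ to 3′ along the gene, and capitals mark the E-box CACGTG and the longer CLEAR motif TCACGTGA, which contains it. The windows are chr2:5064068-5064367 (minus strand) for Optn, chr7:138909457-138909756 (minus strand) for Bnip3 and chr16:45158579-45158878 (plus strand) for Atg3.
Optn: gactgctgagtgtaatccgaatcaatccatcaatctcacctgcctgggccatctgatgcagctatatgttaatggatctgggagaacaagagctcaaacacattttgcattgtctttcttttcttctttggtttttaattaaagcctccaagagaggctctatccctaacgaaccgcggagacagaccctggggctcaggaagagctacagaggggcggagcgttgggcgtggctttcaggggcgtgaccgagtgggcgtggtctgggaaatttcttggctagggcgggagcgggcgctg
Bnip3: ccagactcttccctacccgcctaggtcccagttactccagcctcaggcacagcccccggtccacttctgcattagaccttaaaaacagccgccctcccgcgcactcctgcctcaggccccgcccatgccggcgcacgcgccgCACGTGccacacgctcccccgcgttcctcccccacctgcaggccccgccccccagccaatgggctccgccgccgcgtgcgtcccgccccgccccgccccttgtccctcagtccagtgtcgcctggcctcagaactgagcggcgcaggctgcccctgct
Atg3: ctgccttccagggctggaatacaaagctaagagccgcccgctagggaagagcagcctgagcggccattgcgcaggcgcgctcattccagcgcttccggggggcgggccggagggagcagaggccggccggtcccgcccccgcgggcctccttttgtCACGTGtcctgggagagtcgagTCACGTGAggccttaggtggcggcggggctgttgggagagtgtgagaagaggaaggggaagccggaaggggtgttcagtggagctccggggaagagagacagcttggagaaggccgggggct

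Of the 41 members, 34 had promoters in this table, 43 in all. On both strands, the FoxO core GTAAACA occurred in 0 of the 43, against 3.65% of 32851 promoters of all genes. An E-box occurred in 5 (11.6%, against 7.15% of all promoters), in Atg14, Atg3, Atg5, Atg7 and Bnip3, and the CLEAR motif in 1, Atg3 (2.33%, against 0.974%). The Atg7 window (chr6:114670846-114671145) lies inside the gene model measured, which runs from 114643097 to 114860614 on the plus strand. A match is a description of these windows, and the absence of the letters in a window bears on nothing outside it.

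In gonadal fat, most autophagy genes of knockout mice lay close to control. Of 41 members, 38 had a log2 fold change between -0.2 and 0.2, and the 3 outside it were Optn (0.59), Map1lc3a (0.26) and Pink1 (0.22). No member passed an adjusted p of 0.05 (limma, 3 knockout against 3 control mice, Benjamini-Hochberg over all 14851 genes tested), as was true of 0% of all genes. An unadjusted limma p under 0.05 was reached by 1 member, on the higher side (2.44%, against 8.69% of all genes in either direction and 4.40% on the higher side). On rebuilt reads, edgeR called 0 members (0% of all genes) and DESeq2 called 1, Optn (2.44%, against 2.11% of all genes). The knockout and control mice did not overlap for 6 members (14.6%, against 14.3% of all genes): Ulk1, Atg12, Optn and Bnip3 were higher in all knockout pads (6.79% of all genes) and Map1lc3b and Gabarapl2 were lower (7.54% of all genes). The members' median log2 fold change was -0.010, beside -0.025 over all genes, with 19 members higher (44.2% of all genes) and 22 lower. All 6 genes of the Beclin 1 complex and its regulators were on the lower side, by at most 0.10, although Atg14 and Ambra1 changed direction with the scaling; 55.8% of all genes were on that side. The gonadal knockout pads also held less red blood cell transcript (all 7 markers lower, 1612 to 4181 FPKM summed, against 4224 to 13586 FPKM in controls), and all 10 macrophage markers were lower (6459 to 11400 FPKM, against 8237 to 13270 FPKM in controls). All 5 T cell markers were lower (8.25 to 14.1 FPKM, against 13.2 to 19.7 FPKM in controls). Of the 7 adipocyte markers 6 were higher (11520 to 16515 FPKM, against 10219 to 12856 FPKM in controls), with Plin1 (0.46), Cidec (0.60), Lipe (0.63) and Fabp4 (0.69) not overlapping between genotypes, and Cfd was lower (-0.80). No adipocyte, macrophage, red blood cell or T cell marker was at 0 in any pad. Their part in the gonadal differences, that of Optn included, was not tested beyond a fit with the red blood cell level as a covariate.

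**Figure D1:**
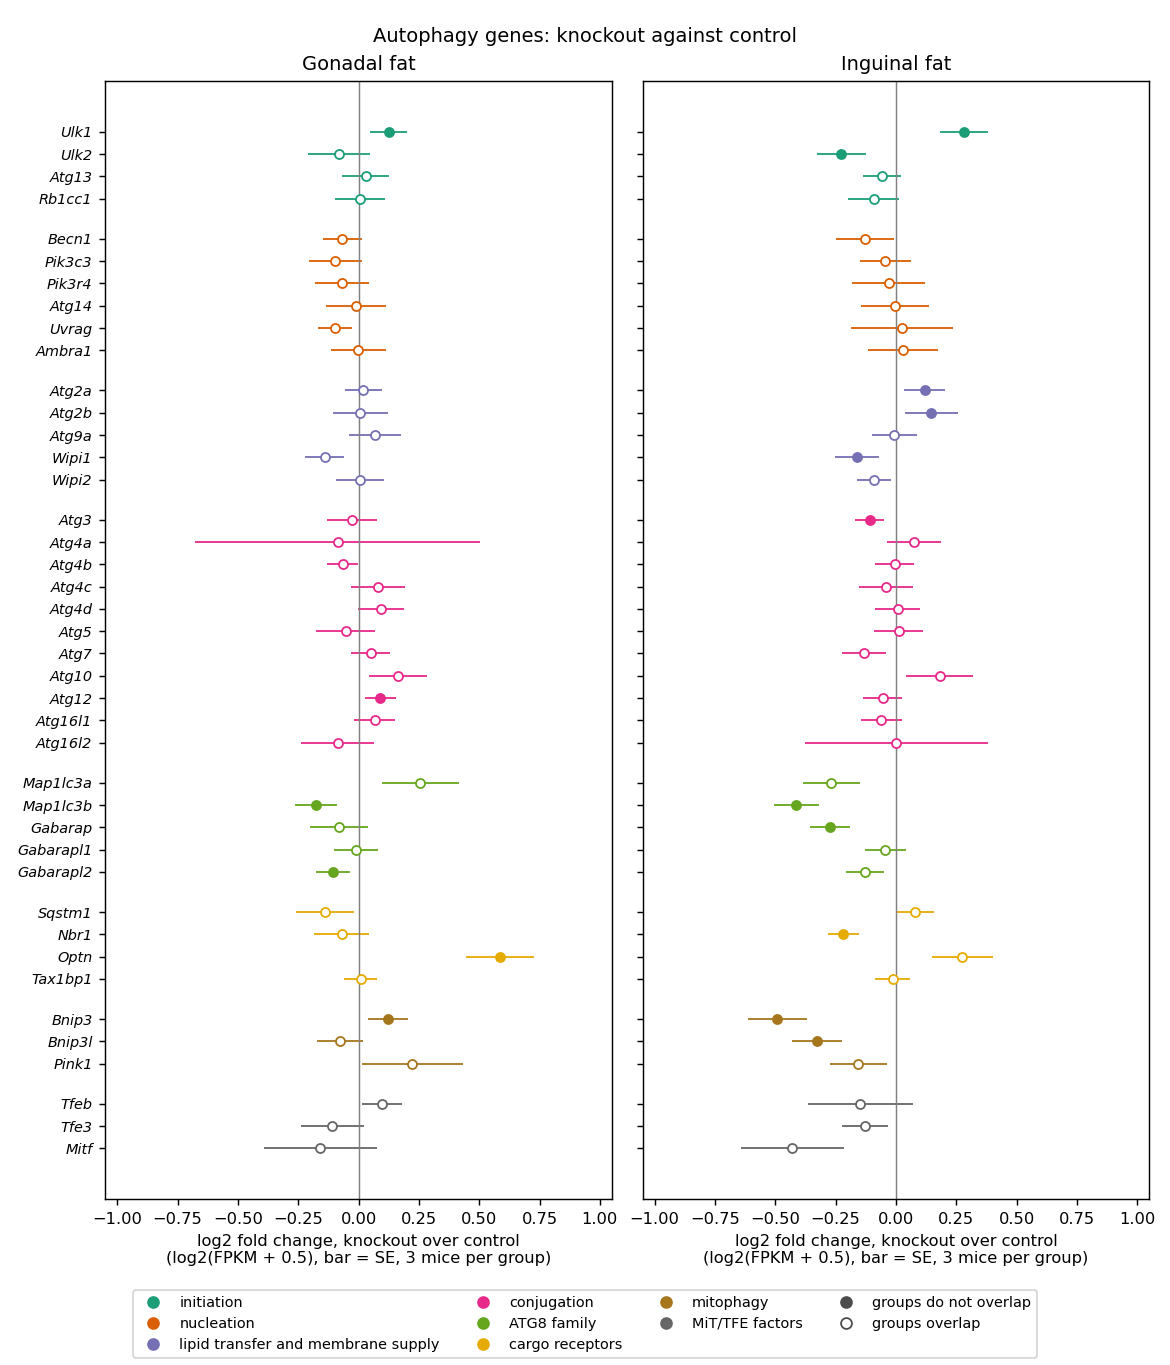
Log2 fold change of each of the 41 genes, knockout over control, in gonadal (left) and inguinal fat (right), with genes grouped by role and horizontal bars for the standard error (3 mice per group). Filled points mark genes whose knockout and control mice do not overlap: 6 in gonadal and 11 in inguinal fat. Optn is the gene farthest to the right in gonadal fat (0.59) and Bnip3 the farthest to the left in inguinal fat (-0.49).

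Optn encodes optineurin, a cargo receptor that binds ubiquitin on damaged mitochondria and on bacteria (ENSMUSG00000026672, chromosome 2, 5020642 to 5064051, minus strand, mm10). Its gonadal level was 11.3, 14.7 and 15.6 FPKM in knockout mice and 9.998, 8.71 and 8.33 FPKM in controls. Every knockout pad was above every control pad, at 154% of the control mean. The log2 fold change was 0.59 (SE 0.14, with an adjusted p of 0.43 by limma). The difference kept its direction under all 5 scalings tried (0.59 to 0.65), with a DESeq2 adjusted p = 0.0243. It was 0.54 in the 3 gonadal pads without male tract transcripts, which include 1 control mouse, and 0.90 with the red blood cell level as a covariate. That level did not overlap between genotypes (mean log2 of 5.25 to 6.37 in knockout and 6.69 to 8.42 in control gonadal pads). The covariate is therefore poorly separable from genotype. In inguinal fat Optn was at 25.9, 33.5 and 27.7 FPKM in knockout mice and 26.6, 23.5 and 21.5 FPKM in controls, groups that overlap (0.28, SE 0.13, limma adjusted p = 0.386; 0.39 with TMM). The knockout effect on Optn was not shown to differ between the depots (difference 0.31, SE 0.20, limma adjusted p = 0.9998).

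The other gonadal members with small p had differences of at most 0.26 in size. Map1lc3b, which encodes LC3B, was at 55.9, 53.5 and 48.8 FPKM in knockout and 63.9, 57.4 and 57.7 FPKM in control mice (-0.18, SE 0.09). Map1lc3a, which encodes the related LC3A, was at 75.4, 107.7 and 100.1 FPKM in knockout and 88.1, 74.0 and 73.0 FPKM in control mice (0.26, SE 0.16). On the FPKM scale, LC3B was thus lower in all knockout pads, while LC3A overlapped between genotypes, with knockout mouse M5 among the controls. With TMM-rescaled values LC3B overlapped between genotypes too. Ulk1, the initiating kinase, was at 10.6, 10.4 and 11.2 FPKM in knockout and 10.3, 9.14 and 9.99 FPKM in control mice (0.13, SE 0.08). Gabarapl2, an ATG8 protein, was at 33.2, 36.4 and 36.1 FPKM in knockout and 38.5, 36.8 and 38.4 FPKM in control mice (-0.10, SE 0.07). Both of these separated the genotypes by small margins on the FPKM scale. Wipi1, which binds the lipid made by the Beclin 1 complex, was at 18.6, 18.1 and 17.3 FPKM in knockout and 21.2, 18.2 and 20.2 FPKM in control mice (-0.14, SE 0.08). Uvrag, an alternative subunit of the Beclin 1 complex, was at 13.1, 12.8 and 13.4 FPKM in knockout and 14.5, 13.3 and 14.5 FPKM in control mice (-0.10, SE 0.07). Both overlapped between genotypes. The limma adjusted p of these 6 genes lay between 0.638 and 0.765.

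In inguinal fat, no autophagy gene passed the adjusted threshold. The smallest p-values were those of Map1lc3b, Bnip3, Nbr1, Gabarap and Bnip3l, with lower values in knockout mice, and of Ulk1, with higher values. Of 13621 genes tested, 0.0220% were called (3 genes, none a member). An unadjusted limma p under 0.05 was reached by 6 members, 1 higher and 5 lower (14.6%, against 14.9% of all genes, of which 3.29% higher and 11.6% lower). Groups did not overlap for 11 members (26.8%, against 22.5% of all genes, of which 5.28% higher and 17.3% lower). Higher in all knockout pads were Ulk1, Atg2a and Atg2b, and lower were Ulk2, Wipi1, Atg3, Map1lc3b, Gabarap, Nbr1, Bnip3 and Bnip3l. Both shares lay near the background. By other tools, edgeR called 0 members (0.0147% of all genes with TMM) and DESeq2 called 1 (2.44%, against 4.85% of all genes).

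Direction in inguinal fat depended on scaling, because most genes were lower in knockout pads. With FPKM as deposited, 70.6% of all genes and 70.7% of the members were lower, with a median of -0.100 over all genes and -0.056 over the members. Rescaling by TMM (trimmed mean of M values), which sets the bulk of genes equal between pads, moved the all-gene median to 0.003 and the members' median to 0.059. The 6 members with an unadjusted p under 0.05 (1 higher, 5 lower) became 4 with TMM, all higher. Over the 5 scalings, 12 members were higher in all, 15 were lower in all and 14 changed direction. The 5 lower members no longer reached an unadjusted p of 0.05 with TMM (limma), and Ulk1 still did. Over the 5 scalings, Map1lc3b and Bnip3l reached it in 4, Bnip3 in 3, Gabarap and Nbr1 in 1, and Ulk1 in 5. For the inguinal members described next, values with TMM stand beside those from FPKM.

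All 5 ATG8 transcripts were lower in inguinal knockout pads on the FPKM scale, with a median of -0.27; Gabarapl1 changed direction with TMM. Map1lc3b (ENSMUSG00000031812, chromosome 8, 121590361 to 121598760, plus strand) was at 55.9, 47.0 and 45.6 FPKM in knockout and 65.9, 66.7 and 64.8 FPKM in control mice. The 3 controls lay close together and above every knockout pad (-0.41, SE 0.09, limma adjusted p = 0.162; -0.30 with TMM). Gabarap was at 171, 160 and 153 FPKM in knockout and 201, 184 and 199 FPKM in control mice (-0.27, SE 0.08, limma adjusted p = 0.231; -0.16 with TMM). Map1lc3a was at 119, 149 and 122 FPKM in knockout and 161, 166 and 142 FPKM in control mice (-0.27, SE 0.12, limma adjusted p = 0.368; -0.15 with TMM). Gabarap separated the genotypes and Map1lc3a did not, since knockout mouse M9 was above control mouse M10. On the FPKM scale, the summed inguinal level of the 5 ATG8 genes was 437 to 483 FPKM in knockout and 535 to 556 FPKM in control pads. In gonadal fat it was 507 to 555 FPKM in knockout and 514 to 548 FPKM in control pads. With TMM-rescaled values the inguinal sums overlapped between genotypes, since knockout mouse M9 was above control mice M6 and M10.

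Bnip3 and Bnip3l encode receptors on the mitochondrial outer membrane that bind LC3 and are known to be induced by low oxygen. In inguinal fat, Bnip3 (ENSMUSG00000078566, chromosome 7, 138890836 to 138909519, minus strand) was at 208, 177 and 161 FPKM in knockout and 242, 280 and 245 FPKM in control mice, or 71.3% of the control mean (-0.49, SE 0.12, limma adjusted p = 0.182; -0.38 with TMM). Bnip3l was at 47.6, 42.9 and 42.4 FPKM in knockout and 62.6, 49.8 and 55.4 FPKM in control mice (-0.33, SE 0.10, limma adjusted p = 0.242; -0.21 with TMM). On the FPKM scale both were below every control in all 3 knockout pads. With TMM, Bnip3 of knockout mouse M5 was above that of control mouse M6. Pink1, the kinase that marks damaged mitochondria, was at 127, 138 and 114 FPKM in knockout and 158, 138 and 126 FPKM in control mice, which overlap (-0.16, SE 0.12; -0.04 with TMM).

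Among the starting kinases, Ulk1 and Ulk2 lay on opposite sides of control in inguinal fat. Ulk1 (ENSMUSG00000029512, chromosome 5, 110784488 to 110810097, minus strand) was at 10.8, 9.12 and 9.41 FPKM in knockout and 7.67, 8.56 and 7.61 FPKM in control mice (0.28, SE 0.10, limma adjusted p = 0.279; 0.39 with TMM). Ulk2 was at 14.3, 14.7 and 12.6 FPKM in knockout and 18.1, 15.6 and 15.2 FPKM in control mice (-0.23, SE 0.10, limma adjusted p = 0.381; -0.11 with TMM). Both kept their direction under all 5 scalings. Nbr1, a cargo receptor that binds ubiquitin, was at 21.6, 20.5 and 20.3 FPKM in knockout and 25.0, 24.0 and 23.9 FPKM in control mice (-0.22, SE 0.06, limma adjusted p = 0.223; -0.10 with TMM). Atg2a and Atg2b, which carry lipid into the growing membrane, differed by 0.12 (SE 0.08) and 0.15 (SE 0.11), and by 0.23 and 0.25 with TMM. Atg2a was the member that DESeq2 called in inguinal fat (adjusted p = 0.0461). The conjugation enzymes stayed between -0.13 and 0.18, with Atg3, the enzyme that attaches ATG8 proteins to lipid, at 29.4 FPKM in every knockout pad and at 32.8, 31.6 and 30.9 FPKM in controls (-0.11, SE 0.06; 0.01 with TMM).

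Levels of other cell types moved with genotype in inguinal fat. All 10 macrophage markers were lower in knockout pads (275.6 to 520 FPKM summed, against 573 to 1244 FPKM in controls), and so were all 7 red blood cell markers (2298 to 2559 FPKM, against 3059 to 10525 FPKM in controls). None of the macrophage or red blood cell markers was at 0 in any pad. All 9 skeletal muscle markers tested were lower as well, and the full list of 12 summed to 8.05 to 347 FPKM in knockout and 97.0 to 777 FPKM in control pads. Of the 7 adipocyte markers, 3 were higher and 4 lower (median -0.260, or -0.144 with TMM). Their mean log2 on the FPKM scale was 10.27 to 10.57 in knockout and 10.63 to 10.90 in control pads, without overlap. Their summed levels overlapped (22048 to 27843 FPKM in knockout, 24719 to 37573 FPKM in control pads). With the red blood cell level as a covariate, Bnip3 stood at -0.68, Map1lc3b at -0.45, Bnip3l at -0.12 and Ulk1 at 0.14. That level did not overlap between genotypes here either, so this covariate is poorly separable from genotype. With the muscle level as a covariate, the same genes stood at -0.42, -0.38, -0.32 and 0.30. The part of these cell types in the results was not tested further.

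**Figure D2:**
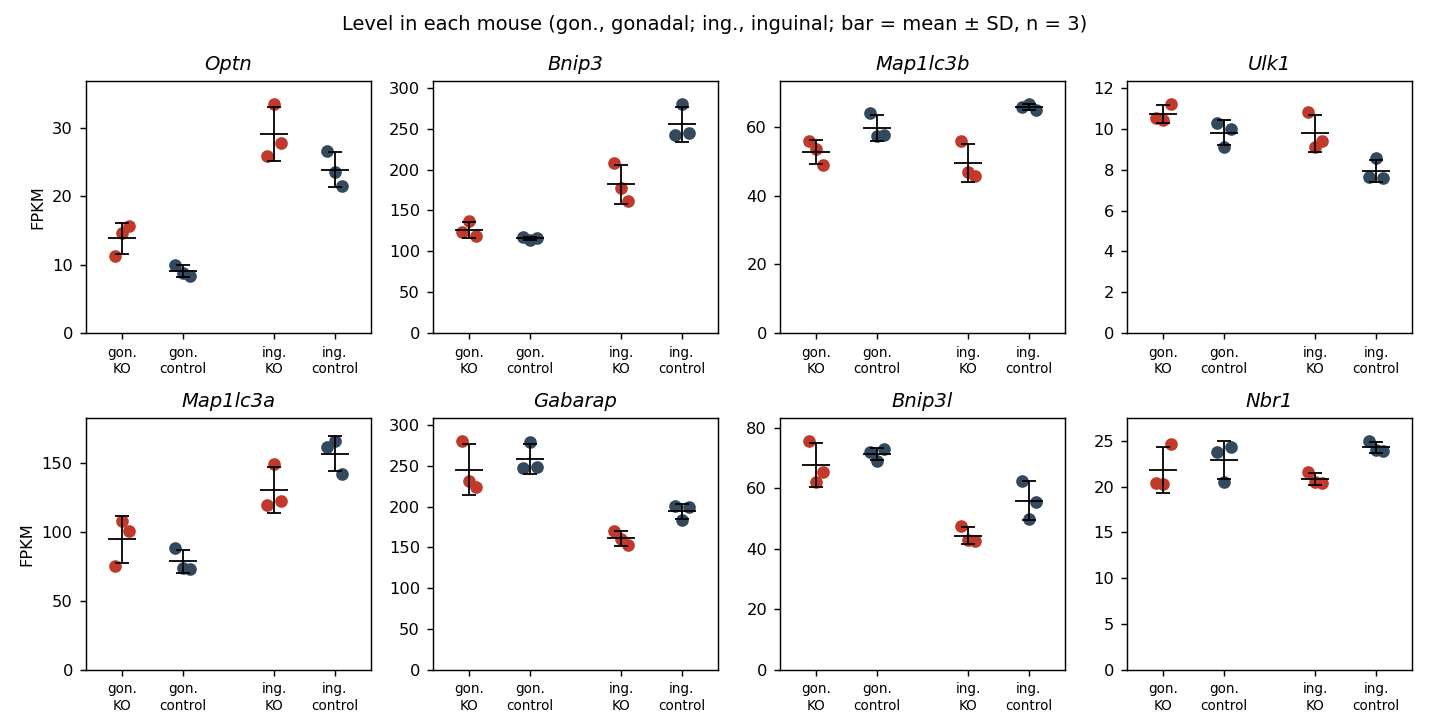
FPKM in each mouse for 8 genes, with gonadal groups at the left and inguinal groups at the right of each panel. Points are mice, and the black bar is the mean with its SD (n = 3). Bnip3 in inguinal fat lies at 161 to 208 FPKM in knockout and 242 to 280 FPKM in control mice, whereas its gonadal groups lie between 113 and 137 FPKM.

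The knockout effects in the depots lay farthest apart for Bnip3, though the difference did not pass the adjusted threshold. In gonadal fat Bnip3 was at 124, 137 and 118 FPKM in knockout and 118, 113 and 116 FPKM in control mice (0.12, SE 0.08, limma adjusted p = 0.758). With FPKM as deposited, Bnip3 was the 1 member whose genotypes did not overlap in either depot and lay in opposite order. With TMM-rescaled values its genotypes overlapped in both depots. The gonadal minus inguinal difference of the effects was 0.61 (SE 0.15, limma adjusted p = 0.822), and it was 0.51 to 0.61 over the 5 scalings. The next in size were Map1lc3a at 0.52 (SE 0.21), Pink1 at 0.38 (SE 0.25) and Optn at 0.31 (SE 0.20), and the next in p after Map1lc3a were Map1lc3b at 0.24 (SE 0.13) and Bnip3l at 0.25 (SE 0.14). Of the 41 members, 27 had a positive difference (66.4% of all genes did), and 2 had an unadjusted limma p under 0.05 (4.88%, against 4.97% of all genes). The adjusted threshold was passed by 0 members, as by 0% of all genes. EdgeR and DESeq2 also called 0 members (0% and 0.0960% of all genes). On the FPKM scale, 6 members were higher in knockout mice in both, 16 were lower in both, 13 were higher in gonadal and lower in inguinal fat, and 6 the opposite. On that scale Ulk1 was higher and Map1lc3b lower, without overlap of the genotypes, in both depots. With TMM-rescaled values this held for Ulk1, but the gonadal genotypes overlapped for Map1lc3b.

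Tfeb, Tfe3 and Mitf did not separate the genotypes in either depot. In gonadal fat Tfeb was at 23.7, 20.5 and 21.6 FPKM in knockout and 19.9, 21.7 and 19.8 FPKM in control mice (0.10, SE 0.08), and in inguinal fat at 10.8, 8.24 and 12.5 FPKM in knockout and 14.1, 8.83 and 12.3 FPKM in control mice (-0.15, SE 0.22; -0.04 with TMM). Tfe3 was at 15.3, 12.03 and 11.9 FPKM in knockout and 12.9, 15.6 and 13.8 FPKM in control gonadal pads (-0.11, SE 0.13), and at 5.92, 6.47 and 6.03 FPKM in knockout and 7.15, 6.98 and 6.15 FPKM in control inguinal pads (-0.13, SE 0.10; -0.02 with TMM). Mitf was at 12.2, 7.496 and 8.21 FPKM in knockout and 7.83, 12.3 and 11.01 FPKM in control gonadal pads (-0.16, SE 0.23), and at 2.36, 1.72 and 1.65 FPKM in knockout and 3.25, 1.97 and 3.11 FPKM in control inguinal pads (-0.43, SE 0.21; -0.33 with TMM). The limma adjusted p was between 0.423 and 0.912 for these 6 comparisons. Knockout means were at 89.5% to 107% of control for Tfeb and Tfe3 and at 68.9% of control for Mitf in inguinal fat, where the genotypes overlapped.

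Of the members, 14 are known from muscle, liver or fat cell studies as FoxO targets. In gonadal fat 5 of the 14 were higher and 9 lower in knockout mice (median -0.032), beside 14 higher and 13 lower among the other 27 members (median 0.005). In inguinal fat 2 were higher and 12 lower (median -0.092), beside 10 higher and 17 lower among the others (median -0.042); of all genes 70.6% were lower. With TMM 7 of the 14 were higher and 7 lower in each depot. Besides Ulk1, Ulk2, Map1lc3b, Bnip3, Bnip3l, Pink1 and Tfeb, they include Becn1, which encodes Beclin 1. Becn1 averaged 11.9 ± 0.65 FPKM in gonadal knockout pads, against 12.5 ± 0.78 FPKM in gonadal controls, and 10.7 ± 0.79 FPKM in inguinal knockout pads, against 11.8 ± 1.59 FPKM in inguinal controls (SD, n = 3 each). Its log2 fold change was -0.07 in gonadal and -0.13 in inguinal fat (-0.02 with TMM). Pik3c3, the lipid kinase VPS34, had -0.10 in gonadal and -0.04 in inguinal fat, and Atg14, which directs it to the autophagosome, -0.01 and -0.00. Atg4b, a protease that trims ATG8 proteins, had -0.07 and -0.01, Atg5, part of the conjugation machinery, -0.05 and 0.01, Atg12, the ubiquitin-like protein joined to it, 0.09 and -0.06, and Gabarapl1, an ATG8 protein, -0.01 and -0.04. In inguinal fat Pik3c3, Atg14, Atg4b, Atg12 and Gabarapl1 changed direction with the scaling, as did Atg14 and Gabarapl1 in gonadal fat. Pink1 was at 85.6, 109.5 and 114.0 FPKM in knockout and 112.0, 68.0 and 88.2 FPKM in control gonadal pads, which overlap (0.22, SE 0.21). Becn1 and these 6 genes differed by no more than 0.13 in either depot, and 0 of the 14 passed the adjusted limma threshold in either comparison.

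The authors' deposited tables, which list selected genes, hold 2 of the 41 members among 1808 genes for gonadal fat (5.13% of all genes in the expression table). They give Optn a log2 fold change of 0.614 and Ulk1 one of 0.153. For inguinal fat, the authors' deposited table lists 8 of the 41 members among 2220 genes (6.29% of all genes in the expression table). Both percentages are of all 35275 genes. The filter on low values was passed by all 41 members, but by only 14851 genes in gonadal and 13621 in inguinal fat. The percentages are therefore too low a background for the members. In that deposited table Ulk1 (0.400), Optn (0.395), Atg2b (0.290), Atg2a (0.247) and Sqstm1 (0.203) are higher, and Bnip3 (-0.354), Map1lc3b (-0.283) and Bnip3l (-0.204) are lower. The authors' tables hold counts of 6 libraries per group, 2 from each mouse. The listed members had the same direction in the fits of 3 mice against 3. Those fits use the same libraries, so the shared direction is not independent support.

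Of the related genes outside the 41 members, in 4 lists, 0 passed the adjusted limma threshold in either knockout comparison (unadjusted limma p under 0.05 in 5 of 97 genes, 5.15%, in gonadal and 12 of 95, 12.6%, in inguinal fat, against 8.69% and 14.9% of all genes). On the FPKM scale 70.6% of all genes were lower in inguinal fat (median -0.100), and with TMM 49.3% were (median 0.003); the lists' inguinal counts moved with this shift and are given on both scales. Of 24 further genes of autophagosome assembly and fusion, 13 were higher and 11 lower in gonadal knockout pads (median 0.007), and 5 were higher and 19 lower in inguinal ones (median -0.053), or 17 higher and 7 lower with TMM (median 0.057). In gonadal fat, Snap29, which serves in fusion with the lysosome, was at 12.2 FPKM in knockout pads, against 14.6 FPKM in controls (-0.25, SE 0.08), and Bcl2, which binds Beclin 1, at 3.03 FPKM in knockout pads, against 3.88 FPKM in controls (-0.31, SE 0.10). Of 19 further selective autophagy genes tested, 10 were higher and 9 lower in gonadal fat (median 0.004), and 1 was higher and 18 lower in inguinal fat (median -0.104), or 10 higher and 9 lower with TMM (median 0.011). Stbd1, a glycogen-binding protein thought to carry glycogen to autophagy, was at 5.81 FPKM in gonadal knockout pads, against 10.7 FPKM in controls (-0.82, SE 0.15, limma adjusted p = 0.407) and at 3.89 FPKM in inguinal knockout pads, against 5.06 FPKM in controls (-0.33, SE 0.14; -0.23 with TMM). Fundc1, a mitophagy receptor, was at 13.7 FPKM in inguinal knockout pads, against 17.5 FPKM in controls (-0.34, SE 0.08, limma adjusted p = 0.165; -0.23 with TMM). The knockout and control mice did not overlap for any of these 4 genes in the depots named.

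Genes that control TFEB through nutrient sensing were higher in 18 and lower in 9 of 27 tested in gonadal fat (median 0.028), and higher in 10 and lower in 16 of 26 tested in inguinal fat (median -0.057), or 17 and 9 with TMM (median 0.054). Sesn2 and Sesn1, sestrins that restrain mTORC1, were lower in inguinal fat. Sesn2 was at 8.02 FPKM in knockout pads, against 15.5 FPKM in controls (-0.89, SE 0.17, limma adjusted p = 0.144; -0.78 with TMM), and Sesn1 at 9.87 FPKM in knockout pads, against 14.2 FPKM in controls (-0.51, SE 0.15, limma adjusted p = 0.218; -0.40 with TMM). Ddit4, another inhibitor of mTORC1, was at 14.9 FPKM in inguinal knockout pads, against 28.4 FPKM in controls (-0.86, SE 0.33; -0.74 with TMM). Lysosomal genes known as TFEB targets were higher in 11 and lower in 16 of 27 tested in gonadal fat (median -0.047). In inguinal fat 5 were higher and 21 lower of 26 tested (median -0.110), or 13 and 13 with TMM (median -0.003), beside the lower macrophage markers there. Hexa, a lysosomal hexosaminidase subunit, was at 66.2 FPKM in inguinal knockout pads, against 87.4 FPKM in controls (-0.40, SE 0.08, limma adjusted p = 0.158; -0.28 with TMM).

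Between depots the differences were larger and many passed the test. In the fit of all 12 pads, 25 of the 41 members were called (61%, adjusted limma p under 0.05), 17 higher and 8 lower in gonadal than in inguinal fat, a share near the 64.0% of all 14577 genes. Of all genes 44.5% were called higher and 19.5% lower. TMM moved the all-gene median from 0.229 to 0.026 and turned the split of the members to 9 higher and 17 lower, so the number on each side depended on the scaling. Of the 25, 17 were called in the same direction under all 5 scalings: Atg4c, Atg5, Atg7, Gabarap, Sqstm1, Bnip3l, Tfeb, Tfe3 and Mitf higher, and Wipi2, Atg4d, Atg10, Map1lc3a, Gabarapl2, Optn, Bnip3 and Pink1 lower in gonadal fat. The 6 gonadal and 6 inguinal pads did not overlap for 15 members, 9 higher and 6 lower (36.6%, against 41.2% of all genes, of which 29.5% higher and 11.7% lower).

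**Figure D3:**
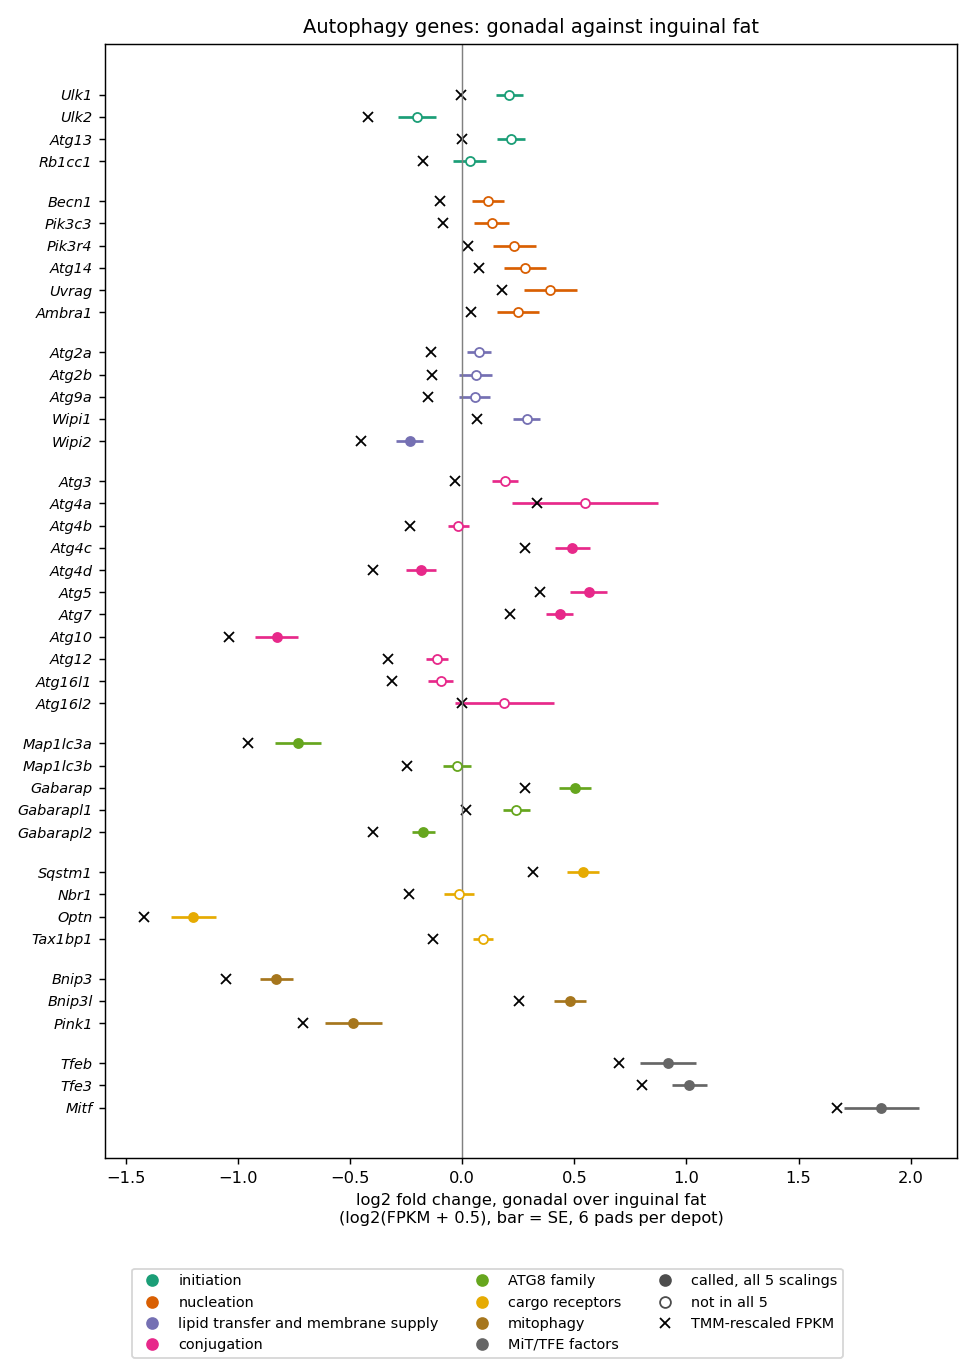
Log2 fold change of each of the 41 genes, gonadal over inguinal fat, averaged over the genotypes, with standard errors (6 pads per depot). Filled points mark the 17 genes called in the same direction under all 5 scalings, and crosses give the value with TMM-rescaled FPKM, which lies to the left of each point. Mitf (1.87), Tfe3 (1.01) and Tfeb (0.92) lie farthest to the right and Optn (-1.20) farthest to the left.

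All 3 MiT/TFE factors were higher in gonadal than in inguinal fat, and the depots did not overlap for any of them. Mitf (ENSMUSG00000035158, chromosome 6, 97807058 to 98021349, plus strand) ranged from 7.496 through a median of 9.61 to 12.3 FPKM in gonadal pads and from 1.65 through 2.16 to 3.25 FPKM in inguinal pads (1.87, SE 0.17, limma adjusted p = 6.18e-06; 1.67 with TMM). Tfe3 (ENSMUSG00000000134, chromosome X, 7762560 to 7775202, plus strand) ranged from 11.9 through 13.3 to 15.6 FPKM in gonadal and from 5.92 through 6.31 to 7.15 FPKM in inguinal pads (1.01, SE 0.08, limma adjusted p = 2.83e-06; 0.80 with TMM). Tfeb (ENSMUSG00000023990, chromosome 17, 47737030 to 47792419, plus strand) ranged from 19.8 through 21.02 to 23.7 FPKM in gonadal and from 8.24 through 11.6 to 14.1 FPKM in inguinal pads (0.92, SE 0.12, limma adjusted p = 9.80e-05; 0.70 with TMM). Tfeb was the most abundant of the 3 in both depots, and Mitf the least.

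Lysosomal genes known as TFEB targets were higher in gonadal fat too, with 25 of 27 called higher and 1, Ctsf, called lower (median 0.89, beside 0.229 over all genes); with TMM 23 were called higher and 1 lower (median 0.66, beside 0.026). The largest differences were in Gpnmb, with 302 FPKM in knockout and 266 FPKM in control gonadal pads, against 1.28 FPKM in knockout and 1.55 FPKM in control inguinal pads, and in the proton pump subunit Atp6v0d2, with 51.7 FPKM in knockout and 41.9 FPKM in control gonadal pads, against 0.317 FPKM in knockout and 0.387 FPKM in control inguinal pads. These genes are also abundant in macrophages. All 10 macrophage markers were called higher in gonadal fat, with summed levels of 6459 to 13270 FPKM in gonadal and 275.6 to 1244 FPKM in inguinal pads, and none was at 0 in any pad. The 7 adipocyte markers were all called lower in gonadal fat (10219 to 16515 FPKM, against 22048 to 37573 FPKM in inguinal fat). The part of these cell types in the depot differences was not tested.

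**Figure D4:**
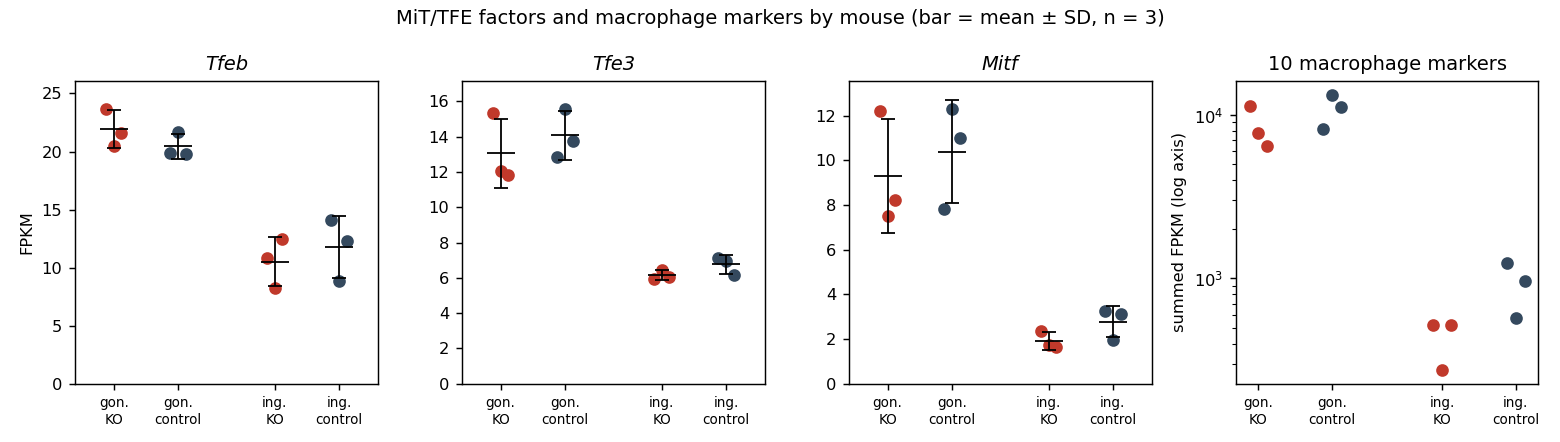
FPKM of Tfeb, Tfe3 and Mitf in each mouse, and the summed FPKM of 10 macrophage markers on a log axis, with knockout left of control within each depot. Points are mice and bars, in the panels of the 3 factors, the mean with its SD (n = 3); gonadal pads lie above inguinal pads in all 4 panels, and the genotypes overlap for the 3 factors in both depots.

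Cargo receptors and mitochondrial receptors split between the depots. Optn ranged from 8.33 through 10.6 to 15.6 FPKM in gonadal and from 21.5 through 26.3 to 33.5 FPKM in inguinal pads (-1.20, SE 0.10, limma adjusted p = 4.03e-06; -1.42 with TMM). Sqstm1, which encodes p62, ranged from 152 through 167 to 201 FPKM in gonadal and from 106 through 119 to 123 FPKM in inguinal pads (0.54, SE 0.07, limma adjusted p = 8.84e-05; 0.32 with TMM). These receptors were therefore ordered oppositely, without overlap of the depots on the FPKM scale. With TMM-rescaled values the depots overlapped for Sqstm1 and not for Optn. Nbr1 (-0.01) and Tax1bp1 (0.09) were not called on the FPKM scale and were called lower under the other 4 scalings (-0.24 and -0.13 with TMM). Bnip3 ranged from 113 through 118 to 137 FPKM in gonadal and from 161 through 225 to 280 FPKM in inguinal pads (-0.83, SE 0.07, limma adjusted p = 6.47e-06; -1.054 with TMM). Bnip3l ranged from 62.0 through 70.5 to 75.8 FPKM in gonadal and from 42.4 through 48.7 to 62.6 FPKM in inguinal pads (0.48, SE 0.07; 0.26 with TMM). Pink1 ranged from 68.0 through 98.8 to 114.0 FPKM in gonadal and from 114.3 through 132 to 158 FPKM in inguinal pads (-0.49, SE 0.13; -0.71 with TMM). The related receptors Bnip3 and Bnip3l thus lay on opposite sides.

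Among ATG8 genes, Map1lc3a was lower and Gabarap higher in gonadal fat. Map1lc3a ranged from 73.0 through 81.8 to 108 FPKM in gonadal and from 119 through 145 to 166 FPKM in inguinal pads (-0.73, SE 0.10; -0.96 with TMM). Gabarap ranged from 224 through 248 to 281 FPKM in gonadal and from 153 through 177 to 201 FPKM in inguinal pads (0.50, SE 0.07; 0.28 with TMM). Neither overlapped between depots on the FPKM scale, while with TMM-rescaled values Gabarap did. Gabarapl2 ranged from 33.2 through 36.6 to 38.5 FPKM in gonadal and from 36.6 through 41.2 to 44.7 FPKM in inguinal pads (-0.17, SE 0.05; -0.40 with TMM). Gabarapl1 ranged from 92.9 through 99.3 to 109.6 FPKM in gonadal and from 76.5 through 84.5 to 90.6 FPKM in inguinal pads (0.24, SE 0.06; 0.02 with TMM). Map1lc3b was not called on the FPKM scale (-0.02, SE 0.06) but was called lower under the other 4 scalings (-0.25 with TMM).

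The conjugation machinery split as well, with Atg10 lower and Atg5 and Atg7 higher in gonadal fat. Atg10, which joins ATG12 to ATG5, ranged from 6.38 through 7.31 to 8.86 FPKM in gonadal and from 10.1 through 14.1 to 14.8 FPKM in inguinal pads (-0.83, SE 0.10, limma adjusted p = 3.40e-05; -1.04 with TMM). Atg7, the activating enzyme that acts before it, ranged from 18.6 through 20.1 to 21.6 FPKM in gonadal and from 12.8 through 14.6 to 16.4 FPKM in inguinal pads (0.43, SE 0.06; 0.22 with TMM). Atg5 ranged from 16.6 through 17.5 to 20.9 FPKM in gonadal and from 10.8 through 12.1 to 13.6 FPKM in inguinal pads (0.56, SE 0.08; 0.35 with TMM). The depots did not overlap for these 3 genes on the FPKM scale, while with TMM-rescaled values they overlapped for Atg7. Atg4c, a protease that trims ATG8 proteins, ranged from 6.46 through 7.10 to 8.30 FPKM in gonadal and from 4.53 through 4.86 to 5.67 FPKM in inguinal pads (0.49, SE 0.08; 0.28 with TMM), and its relative Atg4d from 8.21 through 8.81 to 10.3 FPKM in gonadal and from 9.38 through 10.4 to 10.99 FPKM in inguinal pads (-0.18, SE 0.07; -0.40 with TMM). Atg3 ranged from 31.3 through 35.0 to 39.1 FPKM in gonadal and from 29.4 through 30.2 to 32.8 FPKM in inguinal pads (0.19, SE 0.06; -0.03 with TMM). Atg4b, Atg12 and Atg16l1, which differed by between -0.11 and -0.02, were not called on the FPKM scale but were called lower under the other 4 scalings, and Atg16l2 (0.19) was called under none.

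Among the genes that start autophagosome formation or extend its membrane, only Wipi2 was called between depots under all 5 scalings. Ulk1 ranged from 9.14 through 10.4 to 11.2 FPKM in gonadal and from 7.61 through 8.84 to 10.8 FPKM in inguinal pads (0.21, SE 0.06; -0.01 with TMM). Atg13, an adaptor of the ULK1 complex, ranged from 14.1 through 15.3 to 17.6 FPKM in gonadal and from 12.7 through 13.2 to 14.7 FPKM in inguinal pads (0.22, SE 0.06; -0.00 with TMM). Uvrag ranged from 12.8 through 13.4 to 14.5 FPKM in gonadal and from 7.84 through 10.1 to 12.9 FPKM in inguinal pads (0.39, SE 0.12; 0.18 with TMM). These calls were made on the FPKM scale and not with TMM. The same held for Atg14, which ranged from 4.09 through 4.84 to 5.32 FPKM in gonadal and from 3.35 through 3.95 to 4.39 FPKM in inguinal pads (0.28, SE 0.09; 0.08 with TMM). It also held for Ambra1, a regulator of Beclin 1, which ranged from 6.56 through 7.05 to 8.30 FPKM in gonadal and from 4.82 through 6.15 to 7.07 FPKM in inguinal pads (0.25, SE 0.09; 0.04 with TMM). Of Wipi1 and Wipi2, which read the lipid mark, Wipi2 was called lower under all 5 scalings, and Wipi1 was called higher on the FPKM scale alone. Wipi1 ranged from 17.3 through 18.4 to 21.2 FPKM in gonadal and from 14.0 through 14.9 to 18.2 FPKM in inguinal pads (0.29, SE 0.06; 0.07 with TMM). Wipi2 ranged from 14.6 through 16.3 to 17.7 FPKM in gonadal and from 18.2 through 19.2 to 20.8 FPKM in inguinal pads, without overlap (-0.23, SE 0.06; -0.45 with TMM). The remaining members of these groups, Ulk2, Rb1cc1, Becn1, Pik3c3, Pik3r4, Atg2a, Atg2b and Atg9a, differed by between -0.20 and 0.23 on the FPKM scale and were not called there. Under the other 4 scalings Ulk2 (-0.42 with TMM), Rb1cc1 (-0.17) and Atg2a (-0.14) were called lower, and Becn1 and Atg2b were under 2.

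Atg4a, another ATG8 protease, had the largest standard error of any member in gonadal fat (0.59 around a log2 fold change of -0.09), and its highest levels were in the pads with male tract transcripts. It was at 8.76, 8.89 and 28.2 FPKM in knockout and 12.1, 8.37 and 26.4 FPKM in control gonadal pads. The pads at 28.2, 26.4 and 12.1 FPKM were those of mice M12, M10 and M6, in the order of their male tract marker sums. In inguinal fat it was at 10.1, 9.17 and 8.71 FPKM in knockout and 9.67, 7.77 and 9.11 FPKM in control mice. Its depot difference of 0.55 (SE 0.32, limma adjusted p = 0.162) was not called.

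**Figure D5:**
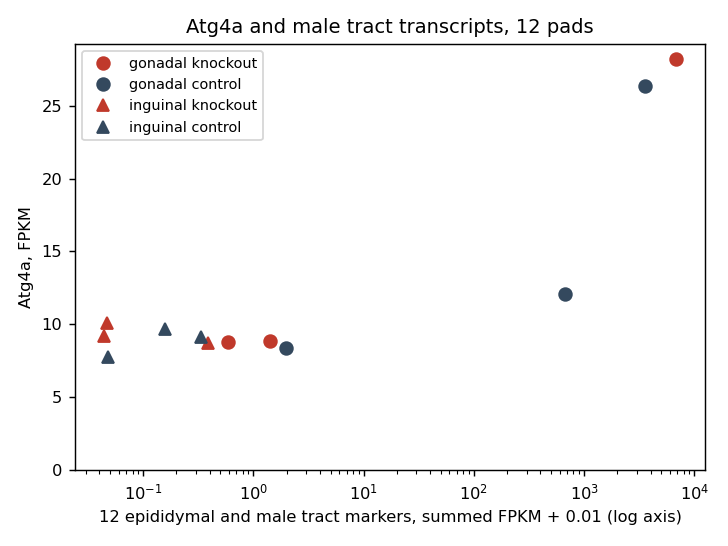
FPKM of Atg4a in each of the 12 pads against the summed FPKM of 12 epididymal and male tract markers (log axis, 0.01 added). Circles are gonadal and triangles inguinal pads, red for knockout and dark blue for control. The 3 pads with marker sums of 667 FPKM or more hold 12.1 to 28.2 FPKM of Atg4a, and the other 9 hold 7.77 to 10.1 FPKM.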

How the data were processed

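Per the labels' protocols, total RNA of each fat pad was extracted with an RNeasy kit and made into libraries with a NEBNext Ultra RNA kit, and strand marking is not stated. CASAVA, STAR and mm10 appear, without versions, per the submitters' processing notes. The deposited table holds FPKM per gene and library, with gene lengths. The authors' deposited comparison tables hold counts, a mean normalised signal per group, log2 fold changes and p-values for the genes they list; 24 columns there that repeat FPKM values were not used. The 41 members and the other gene lists were chosen with earlier results of these data known.

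The 2 libraries of a pad correlated at 0.991 to 0.996 across genes and were averaged, since the nature of the repeat is not given. The z and f in the library names were read as knockout and floxed, because the authors' knockout mean columns average the z libraries; e and s were read as gonadal (epididymal) and inguinal (subcutaneous) from the letters alone. Whether the mice were littermates is not given, and p-values measure the spread between these 3 mice per group. Genes with a mean of at least 0.5 FPKM were tested with limma 3.58.1 (R 4.3.3) fitted to log2(FPKM + 0.5) with a mean-variance trend; p-values were two-sided and adjusted by Benjamini-Hochberg over all genes tested, with a threshold of 0.05. Fold changes on this scale understate those of low genes. Differences between depots used all 12 pads without a block for the animal. The correlation of same-mouse deviations was -0.095 to 0.136, and the animal numbers in the library names were taken to pair the pads.

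Whole reads were recovered from the FPKM values (100% whole within 0.001) and tested with edgeR 4.0.16 and DESeq2 1.42.0. Named genes were the MiT/TFE factors, members past the threshold, the 8 members with the smallest p in each knockout comparison, 4 in the interaction and 6 between depots, 14 known FoxO targets, and up to 4 genes of each further list; Gpnmb, Atp6v0d2 and Ctsf were picked after their depot values were seen. The marker covariates and the pads left out for male tract transcripts are among the alternatives. TMM values of the further lists were added after seeing the data. The tests were checked on simulated data.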

Additional observations from a re-analysis of the deposited data

Results flagged for a closer look

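Bnip3 was picked out because its knockout pads lay above every control pad in gonadal fat and below every control pad in inguinal fat. The gonadal minus inguinal difference of its log2 knockout effects was 0.61 (SE 0.15, limma adjusted p = 0.822), with 0.12 in gonadal and -0.49 in inguinal fat. It was 0.53 to 0.73 when each mouse was left out in turn.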

How the results depend on the processing

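Over the alternatives tried, 573 of 589 values of single genes kept their direction and side of the threshold, 11 passed it and 5 reversed. They cover only the members with the smallest p in each comparison and the MiT/TFE factors in the knockout comparisons. In those comparisons and the interaction the main fit called no member, so keeping the side meant staying uncalled. Over all members and the 5 scalings, 4 changed direction in gonadal fat, 14 in inguinal fat, 11 in the interaction and 12 between depots. Of 146 counts and medians, 126 stayed close. In gonadal fat DESeq2 called 1 member (2.44%, against 2.11% of all genes), as did a fit with every library as its own replicate, 6 per group (1 member, against 7.58% of all genes). In inguinal fat DESeq2 called 1 (4.85% of all genes) and the 6-library fit 9 (22.0%, against 16.1% of all genes), and the interaction had 1 in the 6-library fit (1.82% of all genes). With TMM-rescaled FPKM, edgeR's TMM, edgeR's RLE and DESeq2, the members' median was 0.059, 0.035, 0.062 and 0.062 in inguinal fat, -0.021, -0.018, -0.005 and -0.005 in the interaction, and -0.084, -0.082, -0.095 and -0.095 between depots. The depot comparison called 14 members in control mice alone and 13 in knockout mice alone, with fewer pads. Its median was 0.057 without the pads with male tract transcripts, an alternative chosen after seeing the data. Reversed values were Tfeb -0.054 in gonadal fat and 0.321 in inguinal fat and Mitf 0.050 in inguinal fat with the red blood cell covariate, Wipi1 0.008 in gonadal pads without male tract transcripts, and Tfeb 0.010 in inguinal fat without mouse M9; leaving out each mouse gave Tfeb there from -0.332 to 0.010. The cause was not tested.

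Leaving out each mouse in turn left 0 members called in either knockout comparison and in the interaction, and 18 to 27 between depots. The medians then ran from -0.045 to 0.031 in gonadal fat, from -0.108 to -0.040 in inguinal fat, from 0.030 to 0.10 in the interaction and from 0.094 to 0.143 between depots. With the animal as a replicate block, the interaction had 0 members called and the depot comparison 27. No paired analysis was possible for knockout against control because the mice differ between genotypes and the replicate numbers of the labels are not in the library names. The spread between 3 mice per group sets the standard errors given, and counting error weighs most on members with few reads such as Atg16l2.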
